A study of Mus musculus with 2 samples.

Results

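The gene set described here holds 7 genes grouped as cell cycle inhibitors and quiescence genes. Its members are the cyclin-dependent kinase (CDK) inhibitors Cdkn1a, Cdkn1b, Cdkn2c and Cdkn2d, the antiproliferative factors Btg1 and Btg2, and the transcription factor Klf2. They were taken by symbol, 7 of the 27998 genes counted, in leukocytes from TSA tumors. TSA is a mammary adenocarcinoma cell line of BALB/c mice, grown here under the skin. Mice received either no treatment (1 library) or drinking water with 0.5% nicotinamide (NAM), the amide of vitamin B3, for 10 days (1 library), and each library held CD45+ cells pooled from 3 mice, whose age the labels do not give. With 1 library per group there is no replicate, so no test was made, and what NAM did and what merely distinguishes one pool or library preparation from the other cannot be told apart.

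A cell leaves the division cycle in G1 phase when CDKs no longer phosphorylate the retinoblastoma (RB) family. The Cip/Kip inhibitors p21 (Cdkn1a) and p27 (Cdkn1b) bind cyclin-CDK complexes, whereas the INK4 inhibitors p18 (Cdkn2c) and p19 (Cdkn2d) bind CDK4 and CDK6 and keep them from their D cyclins. Btg1 and Btg2 recruit the CCR4-NOT deadenylase to mRNA and help maintain resting T cells, and Klf2, induced through FOXO1, keeps naive T cells quiescent and drives the genes they need to recirculate, while in macrophages it restrains inflammatory genes.

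The untreated library held 2922 cells and the NAM library 3276, and 11 barcodes occurred in both. The median cell had 9056 and 9128 unique molecular identifiers (UMIs), the tags by which captured RNA molecules are counted. Cells were grouped by marker UMIs. T cells (Cd3d, Cd3e, Cd3g) numbered 185 and 238 in the untreated and NAM libraries, NK cells (Ncr1) 73 and 41, and myeloid cells 2576 and 2862. Cells with 3 or more UMIs of Birc5, Top2a and Ube2c together, which mark S to M phase, were called cycling and kept apart, which left 164 and 218 T, 63 and 37 NK and 2238 and 2519 myeloid cells. Levels are UMIs per 1000000 of the group (CPM), and ratios are log2 of NAM over untreated. Brackets hold 95% counting intervals (exact Poisson for levels, conditional binomial for ratios, Clopper-Pearson for shares), which cover counting error only.

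Labels of the groups were checked against other markers. The 3 B cell markers were at 0 in T and NK cells, and 5 lymphoid markers not used for the gates (Cd2, Lck, Klre1, Klrk1, Eomes) summed to between 1605 and 1770 CPM in T and NK cells against 46.8 and 58.3 in myeloid cells. Erythroid RNA (Hbb-bs and Hba-a1) summed to 17.2 CPM in untreated and 4638 in NAM T cells, nearly all of it in 1 NAM cell with 4820 such UMIs. Leaving out the cells with 10 or more such UMIs (1 T cell and 4 myeloid cells, all of the NAM library) moved no member's ratio across 0 in the 3 groups. Mast cell markers (Cpa3, Mcpt4) summed to 68.7 and 11.4 CPM and neutrophil markers (S100a8, S100a9, Csf3r) to 18.5 and 119 CPM in untreated and NAM T cells. They were highest in other CD8-negative T cells of the untreated library (mast, 499.6 CPM, and 0 with NAM) and in NAM regulatory-like T cells (neutrophil, 352 CPM, and 15.6 untreated), where 1 cell each held 10 or more such UMIs. The dendritic cell gene Cd209a was at 141 CPM in untreated and 0 in NAM regulatory-like T cells, all 36 UMIs in 1 cell. Leaving out that cell and 1 CD8 T cell with 3 or more Cd209a UMIs turned no member's ratio whose interval left out 0. Myeloid markers (8 genes, among them Lyz2) summed to 2503 and 3085 CPM in T cells and 1837 and 3400 in CD8 T cells, against 45702 and 49744 in myeloid cells, and their part in the ratios was not tested. C1q genes, which T and NK cells lack, were at 3.47% and 3.01% of the myeloid level in untreated and NAM T cells and at 4.13% and 6.11% in NK cells. At that share, RNA from myeloid cells would bring 18.1 and 17.5 CPM of Cdkn1a to T cells and 21.5 and 35.6 CPM to NK cells. For Cdkn1b it would bring less than 1 CPM to either. The part of such RNA in the ratios was not tested.

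The sequences upstream of the 4 members whose ratio interval left out 0 in T cells are shown first, since motifs in them are background to the comparisons. All come from RefSeq (GRCm38.p6), 5′ to 3′ on the strand of the gene, and end before the first annotated base. Capitals mark letters of 6 motifs picked after the sequences had been seen. They were searched on both strands in the window from 250 bases before to 50 after each start site, namely CRE (TGACGTCA), FOXO (TGTTTAC), MEF2, E2F (TTTCCCGC), CHR (TTTGAA) and CCAAT. Among 32851 promoters of that length, 1.79% held the CRE, 3.65% the FOXO, 3.69% the MEF2, 1.07% the E2F, 17.9% the CHR and 37.4% the CCAAT letters.
Btg1, plus strand, chr10:96616751-96617000, FOXO letters from base -204 and CCAAT letters, reversed, from base -80 of the start site
Btg1: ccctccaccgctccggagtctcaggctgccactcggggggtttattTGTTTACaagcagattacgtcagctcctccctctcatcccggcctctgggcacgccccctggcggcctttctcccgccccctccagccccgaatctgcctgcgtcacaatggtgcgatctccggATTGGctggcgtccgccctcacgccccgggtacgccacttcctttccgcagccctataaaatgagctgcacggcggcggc
Btg2, minus strand, chr1:134079156-134079405, CRE letters from base -166 and CCAAT letters from bases -173 and -34
Btg2: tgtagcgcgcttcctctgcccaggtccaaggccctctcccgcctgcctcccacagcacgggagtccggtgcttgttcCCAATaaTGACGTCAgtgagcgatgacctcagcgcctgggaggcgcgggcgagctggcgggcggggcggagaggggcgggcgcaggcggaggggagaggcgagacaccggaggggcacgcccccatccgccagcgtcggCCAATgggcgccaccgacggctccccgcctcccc
Klf2, plus strand, chr8:72318812-72319032, MEF2 letters from base -118
Klf2: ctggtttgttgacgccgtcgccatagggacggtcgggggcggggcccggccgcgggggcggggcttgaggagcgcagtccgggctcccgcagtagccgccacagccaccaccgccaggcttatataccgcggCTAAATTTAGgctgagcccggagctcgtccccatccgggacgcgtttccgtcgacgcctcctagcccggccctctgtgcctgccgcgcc
Cdkn1b, plus strand, chr6:134920151-134920400, CCAAT letters from bases -161 and -35, and reversed from base 45 beyond the printed part
Cdkn1b: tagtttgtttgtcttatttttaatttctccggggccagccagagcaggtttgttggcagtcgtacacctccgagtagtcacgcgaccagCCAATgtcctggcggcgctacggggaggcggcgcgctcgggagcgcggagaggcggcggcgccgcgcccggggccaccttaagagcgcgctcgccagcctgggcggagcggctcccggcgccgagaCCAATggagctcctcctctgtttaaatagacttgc
No match overlapped another. Of the other members, Cdkn2c and Cdkn2d held CCAAT letters and Cdkn1a held none of the 6 motifs. Genes lie at chr17:29090976-29100727 (Cdkn1a), chr4:109660876-109667189 (Cdkn2c) and chr9:21288410-21291407 (Cdkn2d) in GENCODE vM21, and Cdkn1a overlaps an antisense gene model. A match is a description of letters, and no binding was measured.

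Btg1 and Btg2, paralogs with the same biochemical role, differed between the libraries in opposite directions. Btg1 was at 1840 CPM [1744, 1939] in untreated and 1240 [1173, 1309] in NAM T cells, a log2 ratio of -0.57 [-0.68, -0.46]. In NK cells it was at 1740 and 1158 CPM, a ratio of -0.59 [-0.83, -0.35], and in myeloid cells at 808 and 620, a ratio of -0.38 [-0.41, -0.35]. The NAM library was thus the lower one in all 3 groups. Btg2 was at 284 CPM [247, 325] in untreated and 383 [347, 422] in NAM T cells, a ratio of 0.43 [0.19, 0.68]. It was at 424 and 706 CPM in NK cells (0.74 [0.37, 1.10]) and at 254 and 325 CPM in myeloid cells (0.36 [0.31, 0.41]). Here the NAM library was the higher one in all 3 groups.

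The same split ran through 7 subgroups that share no cell: CD8 T cells, regulatory-like T cells (Foxp3, Il2ra or Ikzf2), other CD8-negative T cells, NK cells, macrophages, monocytes and dendritic cells. Btg1 was lower in NAM in 7 of 7, with ratios from -0.82 in regulatory-like T cells to -0.29 in monocytes, and each interval left out 0. Among 462 genes with 50 or more UMIs in every subgroup, 4.76% were lower in all 7. Btg2 was higher in NAM in 7 of 7, from 0.13 in other CD8-negative T cells to 0.74 in NK cells, and the interval left out 0 in 5. Of these 5, regulatory-like T cells no longer did so without the 5 highest cells of each library (0.63 [-0.13, 1.41]) or without 1 NAM cell with neutrophil RNA (0.57 [-0.02, 1.17]). Other CD8-negative T cells were at 1.04 [0.03, 2.13] without the 5 highest cells. Of the same 462 genes, 11.5% were higher in all 7. Subgroups share their library, so they do not stand for replicates of treatment. In the plot of ratios by subgroup, the Btg1 and Btg2 panels lie on either side of 0.

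**Figure D1:**
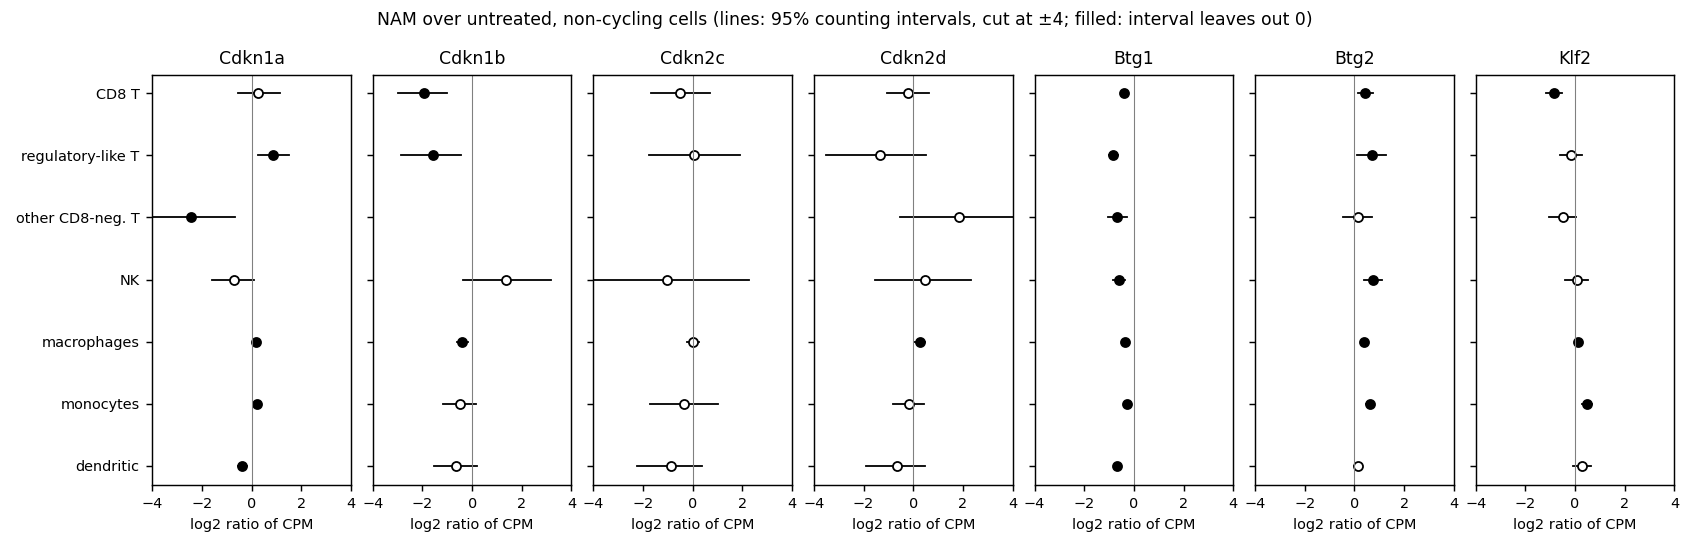
Log2 ratios of CPM, NAM over untreated library, for each of the 7 genes (panels) in non-cycling cells of 7 subgroups (rows). Lines are 95% counting intervals, drawn only between -4 and 4, and filled points have an interval that leaves out 0; Btg1 is below 0 in 7 of 7 rows and Btg2 above 0 in 7 of 7, and Cdkn1b and Cdkn2c have no point in other CD8-negative T cells, where NAM had 0 UMIs.

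Shares of positive cells pointed the same way for both genes. After each cell had been thinned to 3000 UMIs, 48.2% [40.3, 56.1] of untreated and 61.0% [54.2, 67.5] of NAM T cells held a Btg2 UMI. The shares were 42.9% [40.9, 45.0] and 53.4% [51.4, 55.4] in myeloid cells. Without thinning they were 59.1% and 75.7% in T cells and 69.1% and 76.7% in myeloid cells. For Btg1 the thinned shares were 97.0% and 89.4% of T cells and 79.8% and 74.7% of myeloid cells. Median depth was 4185 and 4154 UMIs in T cells and 9076 and 9195 in myeloid cells. Reads of Btg1 could in principle be shared with its processed copies Btg1-ps1 and Btg1-ps2, both of which were listed with 0 UMIs against 42990 for Btg1.

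**Figure D2:**
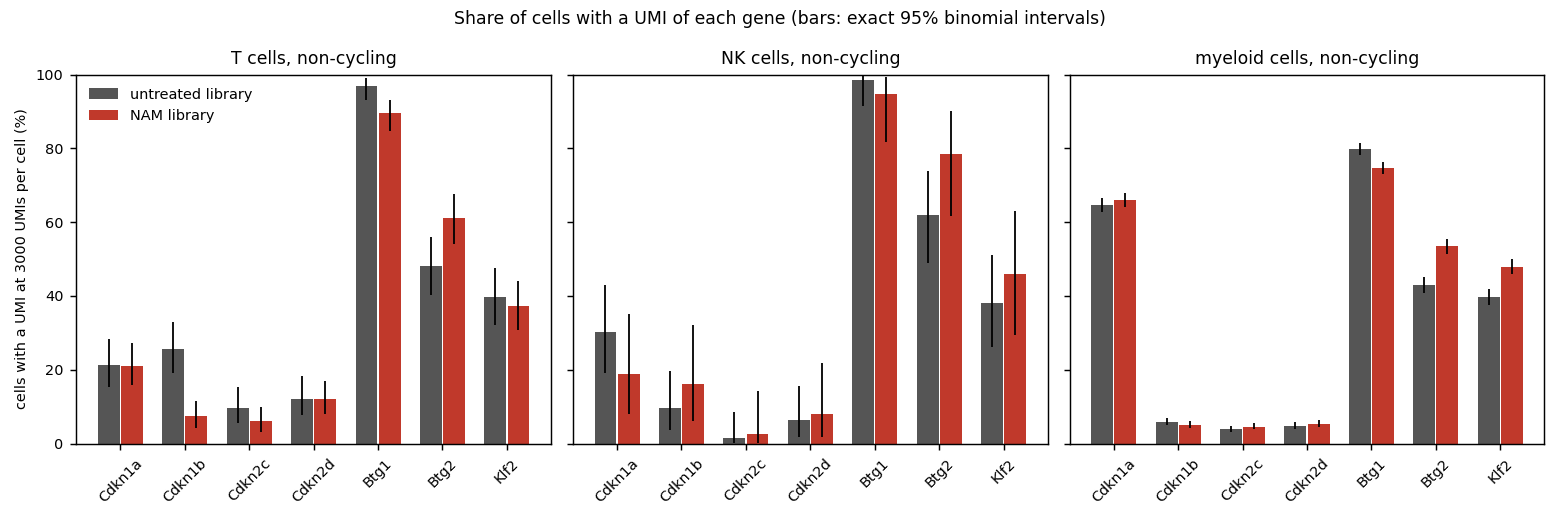
Percentage of non-cycling T, NK and myeloid cells with at least 1 UMI of each gene after thinning to 3000 UMIs per cell, untreated (grey) and NAM (red). Error bars are exact 95% binomial intervals; the share for Cdkn1b in T cells is 25.6% untreated and 7.34% with NAM, and Btg2 shares are higher in the NAM library in each panel.

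Cdkn1b, whose product p27 is the main brake on CDK2 in resting lymphocytes, had the most negative ratio of the members in T cells. It had 65 UMIs (85.9 CPM [66.3, 109]) in untreated and 23 UMIs (21.9 CPM [13.9, 32.8]) in NAM T cells, a ratio of -1.97 [-2.73, -1.27], and the level intervals did not overlap. No cell held more than 4 Cdkn1b UMIs, and 25.6% [19.1, 33.0] of untreated against 7.34% [4.25, 11.6] of NAM T cells were positive at 3000 UMIs (32.9% and 9.17% without thinning). The difference was therefore spread over many cells. By subset, CD8 T cells went from 80.8 to 20.8 CPM (-1.96 [-2.97, -1.02]) and regulatory-like T cells from 93.7 to 31.0 (-1.59 [-2.88, -0.44], and -3.21 without the 5 highest cells of each library). Other CD8-negative T cells had 8 UMIs without treatment (86.9 CPM [37.5, 171]) and 0 with NAM, whose interval reached 41.4 CPM, so these level intervals overlapped. Across 12 alternative settings, the T cell ratio lay between -2.33 and -1.69.

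In myeloid cells Cdkn1b differed the same way but by less, from 21.9 to 16.3 CPM (-0.43 [-0.63, -0.23]). Macrophages were at 20.5 and 15.5 CPM (-0.40 [-0.61, -0.18]), and in monocytes (30.6 and 21.6) and dendritic cells (40.1 and 25.7) the interval included 0. After thinning, the myeloid ratio was -0.25 [-0.61, 0.10]. NK cells held 6 and 8 Cdkn1b UMIs (18.3 and 47.0 CPM, 1.36 [-0.35, 3.17]), too few to show a direction. Among cells not called cycling, untreated T cells had the highest Cdkn1b levels. In the NAM library the T cell level (21.9 CPM) lay among those of the myeloid subgroups (15.5 to 25.7 CPM).

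Cdkn1a, encoding the p53 target p21, was higher in each myeloid than in each lymphoid subgroup. Monocytes held 940 and 1110 CPM (untreated, then NAM), above every other subgroup in both, macrophages 478 and 543, dendritic cells 668 and 518, and CD8 T cells 48.98 and 59.4. Ratios between libraries had both signs. Myeloid cells as a whole were at 520 and 582 CPM (0.16 [0.13, 0.20]), with macrophages at 0.18 and monocytes at 0.24 [0.14, 0.34], whereas dendritic cells were at -0.37 [-0.56, -0.18]. In T cells Cdkn1a was at 93.8 and 107 CPM (0.19 [-0.25, 0.64]), and in NK cells at 165 and 99.9 (-0.72 [-1.60, 0.09]). With gates on thinned cells the T cell ratio was -0.27 [-0.66, 0.12], and the sign in NK cells turned as well. Regulatory-like T cells stood at 133 and 241 CPM, from 34 and 70 UMIs (0.86 [0.25, 1.499]), but without the 5 highest cells of each library the interval included 0 (0.87 [-0.01, 1.80]), as it did without 1 NAM cell with neutrophil RNA (0.62 [-0.02, 1.27]). The remaining CD8-negative T cells had 17 and 3 UMIs (-2.46 [-4.87, -0.67], and -2.51 without 1 untreated cell with mast cell RNA).

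**Figure D3:**
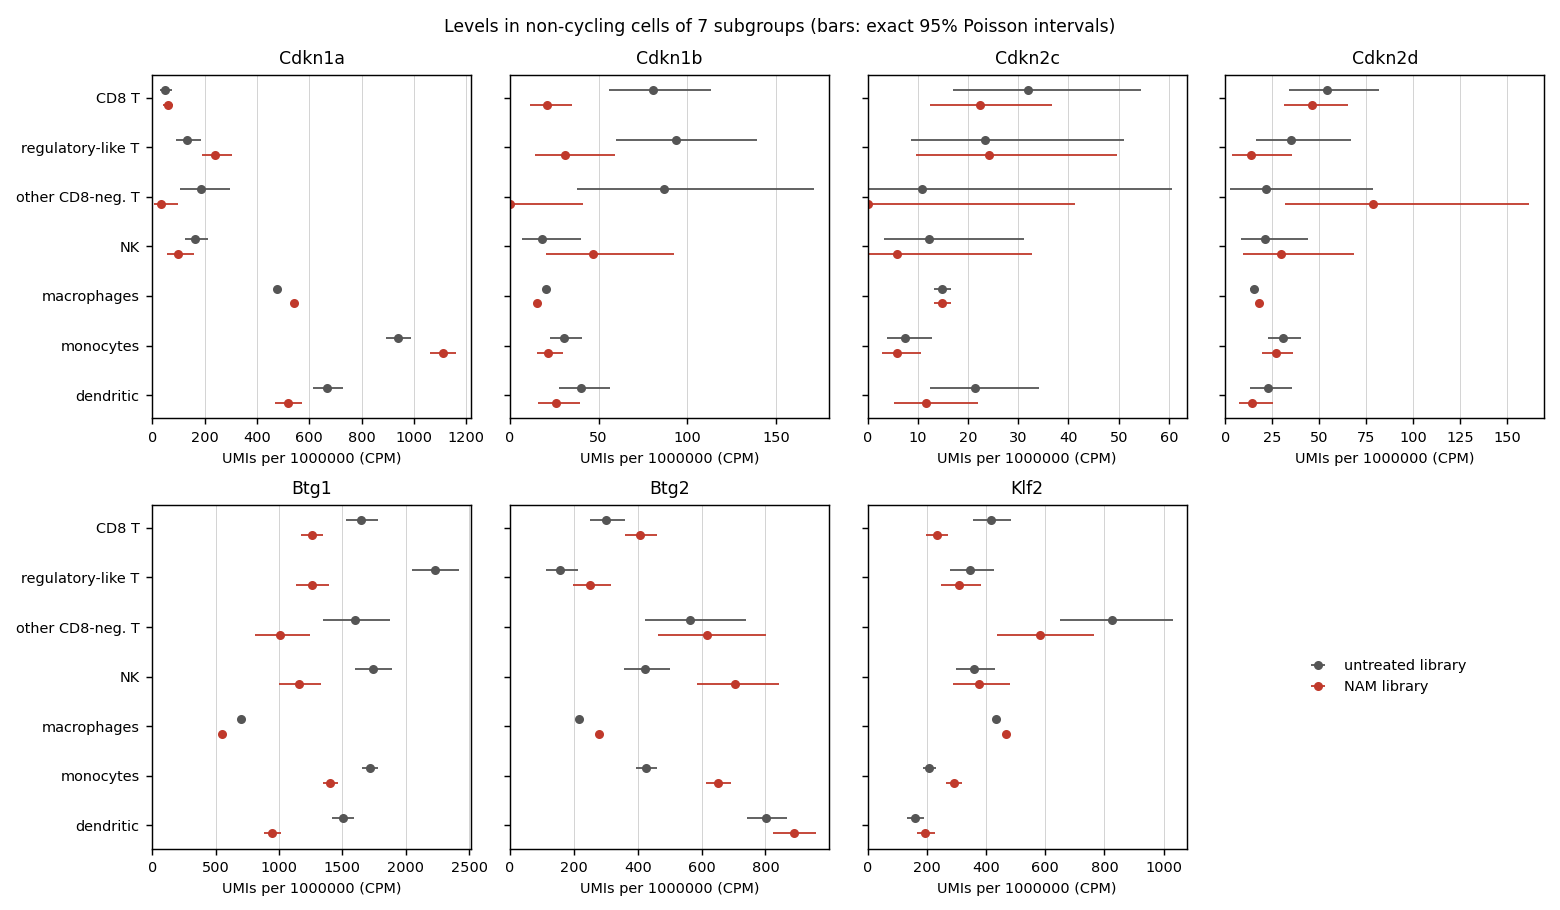
Levels in UMIs per 1000000 (CPM) of the 7 genes in non-cycling cells of 7 subgroups, untreated (grey) and NAM (red) libraries, with exact 95% Poisson intervals. Cdkn1a is highest in monocytes (940 and 1110 CPM); Cdkn1b is above 80 CPM in the 3 untreated T cell subgroups and at most 31.0 CPM in the same NAM subgroups.

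The INK4 genes Cdkn2c and Cdkn2d were low in cells not called cycling. In T cells Cdkn2c was at 26.4 and 20.9 CPM (-0.34 [-1.28, 0.61]) and Cdkn2d at 43.6 and 39.9 (-0.13 [-0.82, 0.58]). In myeloid cells they were at 14.5 and 14.1 CPM (-0.04 [-0.27, 0.18]) and at 16.5 and 18.4 (0.16 [-0.05, 0.36]). NK cells held 4 and 1 UMIs of Cdkn2c and 7 and 5 of Cdkn2d. Of the 7 subgroups, only macrophages had an interval that left out 0, for Cdkn2d (15.1 and 17.9 CPM, 0.25 [0.03, 0.47]), and the other differences were not detectable at this depth.

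Klf2 differed between libraries in opposite directions in T and myeloid cells. In T cells it was at 443 CPM [397, 493] untreated and 284 [253, 318] with NAM (-0.64 [-0.87, -0.41]). In NK cells it was at 360 and 376 CPM (0.07 [-0.40, 0.52]), but at a ratio of -0.47 without the 5 highest cells of each library and -0.58 [-1.15, -0.04] with gate minimums raised by 1 UMI. In myeloid cells it was at 407 [399, 416] and 448 [439, 456] (0.14 [0.10, 0.18]). Klf2 RNA was concentrated in few cells: the 5 highest cells held 26.6% of its UMIs in untreated and 29.8% in NAM T cells. The share of T cells with a UMI at 3000 UMIs was 39.6% [32.1, 47.6] and 37.2% [30.7, 43.9], and these intervals overlap. Without the 5 highest cells of each library the T cell ratio was -0.72.

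Among T cells, CD8 T cells had the most negative Klf2 ratio (416 and 233 CPM, -0.84 [-1.16, -0.51]). Regulatory-like T cells were at 347 and 310 (-0.16 [-0.60, 0.28]) and other CD8-negative T cells at 825 and 583 (-0.50 [-1.04, 0.03], and 0.046 without the 5 highest cells of each library).

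Among myeloid cells, Klf2 was higher in the NAM library in each of 3 subgroups. Macrophages were at 434 and 469 CPM (0.11 [0.07, 0.15]), and the thinned share of positive cells was 41.1% [38.9, 43.3] untreated and 49.5% [47.4, 51.6] with NAM. Monocytes were at 208 and 291 CPM (0.49 [0.28, 0.69]), and dendritic cells, the lowest in both libraries, at 160 and 195 (0.28 [-0.06, 0.63]). Without the 5 highest cells of each library, the monocyte ratio was 0.87.

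Members past 1.5-fold were then counted beside all genes. The members were chosen with earlier results of these data known, so these counts are not independent of those results. Of the 6 members with 50 or more UMIs in T cells, 0 were 1.5-fold or more higher in NAM, where 6.12% of 4102 genes were, and 2 (Cdkn1b, Klf2) were lower, where 8.29% were. In NK cells 1 of 4 (Btg2) was higher (4.09% of 1345 genes) and 2 of 4 (Cdkn1a, Btg1) lower (9%). With gates on thinned cells NK Cdkn1a was at 0.83 [0.26, 1.40], so its direction turned, and NK Btg1 at -0.37, under 1.5-fold. In myeloid cells 0 of 7 passed in either direction (1.64% of 10889 genes higher, 5.16% lower). Medians over these 6, 4 and 7 members were -0.35 in T, -0.26 in NK and 0.14 in myeloid cells, beside 0.02, 0.00 and -0.03 over all genes. In NK cells the median over all 7, with those of few UMIs, was 0.07. Subgroups follow with the percentages of all genes that passed higher and lower in brackets. In monocytes 1 of 6 members with 50 or more UMIs, Btg2, was higher (4.03 and 7.69), and in macrophages 0 of 7 passed (1.66 and 4.97). In dendritic cells 2 of 5 (Cdkn1b, Btg1) were lower (6.19 and 9.39), and in CD8 T cells 1 of 5 (Klf2) was (6.63 and 6.88). In regulatory-like T cells 2 of 4 (Cdkn1a, Btg2) were higher and 1 (Btg1) lower (8.36 and 8.24), and in other CD8-negative T cells 1 of 3 (Btg1) was lower (11.7 and 8.05). Cdkn1b had under 50 UMIs in each of the 3 T cell subsets and was not counted there.

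Cycling cells were then compared with the other cells of the same library, which sets no library against the other. Cycling cells made up 13.1% [11.8, 14.5] of untreated and 12.0% [10.8, 13.2] of NAM myeloid cells, and 11.4% [7.17, 16.8] and 8.40% [5.21, 12.7] of T cells (21 and 20 cells). NK cells had 10 and 4 cycling cells and were not compared. The INK4 genes were high in cycling cells. Myeloid Cdkn2c was at 14.5 CPM in other and 117 in cycling untreated cells (3.01 [2.81, 3.21]), and at 14.1 and 97.5 in NAM cells (2.79 [2.59, 2.99]). Cdkn2d was at 16.5 and 96.5 CPM (2.55 [2.35, 2.75]) and at 18.4 and 92.5 (2.33 [2.14, 2.52]). Cdkn1b, by contrast, was at 21.9 and 21.5 CPM (-0.03 [-0.33, 0.27]) and at 16.3 and 15.2 (-0.10 [-0.46, 0.25]).

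The Btg genes were lower in cycling myeloid cells of both libraries. Btg1 was at 808 CPM in other and 510 in cycling cells untreated (-0.66) and at 620 and 420 with NAM (-0.56), and Btg2 at 254 and 134 (-0.93) and at 325 and 205 (-0.66). Cdkn1a ratios were -0.40 and -0.47. Klf2 ratios were -0.62 [-0.70, -0.53] untreated and -0.13 [-0.20, -0.07] with NAM, the latter 0.0013 [-0.09, 0.09] with gates on thinned cells and 0.018 [-0.03, 0.07] with a cycling minimum of 1 UMI. In the untreated library 2 of the 7 members were 1.5-fold or more higher in cycling cells, as were 15.1% of all genes, and 3 were lower, as were 9.19%. In the NAM library 2 were higher (15.8%) and 1, Btg2, lower (9.44%). The compared cells differ in their mix of subgroups: macrophages made up 316 of 338 cycling but 1926 of 2238 other untreated cells. In macrophages alone Klf2 was at -0.69 [-0.77, -0.60] untreated and -0.31 [-0.38, -0.24] with NAM. Btg1 was at -0.53 and -0.45 there, both under 1.5-fold.

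In T cells Cdkn2c rested on 20 and 25 UMIs untreated (26.4 and 142 CPM, 2.42 [1.52, 3.35]) and on 22 and 19 UMIs with NAM (20.9 and 104 CPM, 2.31 [1.34, 3.26]). Cdkn2d was higher in cycling cells by 1.45 and 1.13, Btg1 lower at -0.79 and -0.89, and Btg2 at -0.52 [-1.08, 0.00] and -1.005 [-1.55, -0.50]. Cdkn1b was at -0.92 [-2.19, 0.14] and 0.80 [-0.66, 2.07]. Klf2 was at 0.11 [-0.26, 0.46] untreated and -1.46 [-2.21, -0.79] with NAM, but the latter was 0.010 [-0.47, 0.46] with gates on thinned cells. The Cdkn2d interval included 0 in both libraries once cells were thinned or the 5 highest cells left out, and in the NAM library with a cycling minimum of 1 UMI (0.41 [-0.42, 1.22]), as did that of Cdkn2c in the NAM library once cells were thinned (1.64 [-0.42, 3.31]). In cycling T cells the 84 and 19 UMIs of Klf2 were held to 77.4% and 100% by 5 cells. Cdkn1a was at 1.31 [0.72, 1.88] and -0.05 [-0.84, 0.66], and the first value was -0.05 without the 5 highest cells. Of members with 50 or more UMIs, 2 of 6 were 1.5-fold or more higher and 2 lower in the untreated library (16% and 16% of all genes), and 1 of 5 higher and 3 lower in the NAM library (15.9% and 17%).

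**Figure D4:**
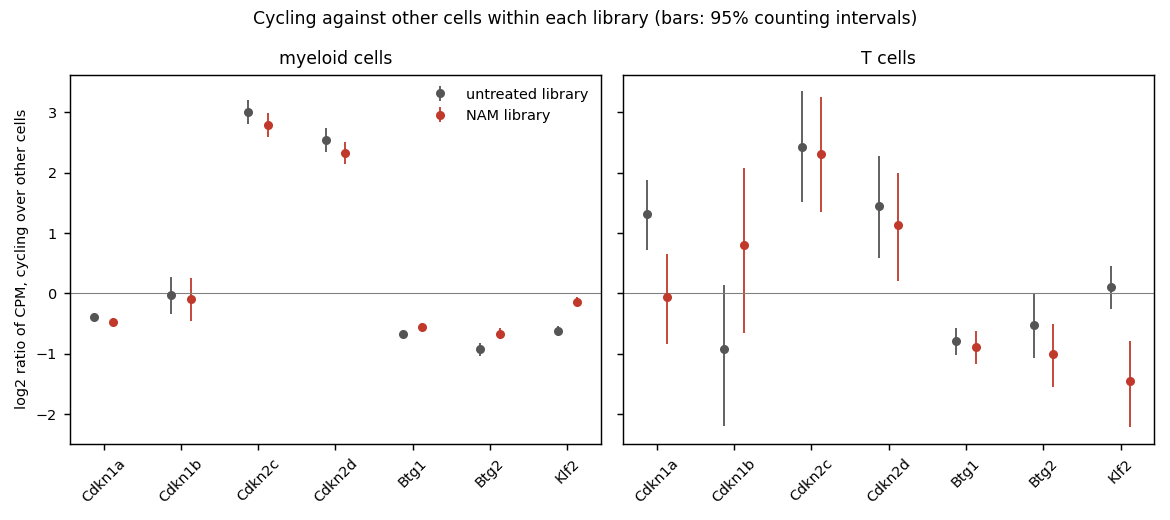
Log2 ratios of CPM, cycling over other cells, for the 7 genes in myeloid (left) and T cells (right), untreated (grey) and NAM (red) libraries, with 95% counting intervals. Cdkn2c and Cdkn2d lie above 0 in both libraries and both cell types (3.01 and 2.79 for Cdkn2c in myeloid cells), and Btg1 and Btg2 lie below 0.

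Between libraries, cycling cells repeated part of the pattern. In cycling myeloid cells Btg1 was at 510 and 420 CPM (-0.28 [-0.36, -0.20]), Btg2 at 134 and 205 (0.62 [0.48, 0.76]), Klf2 at 266 and 408 (0.62 [0.52, 0.72]) and Cdkn2c at 117 and 97.5 (-0.26 [-0.43, -0.09]). Cdkn1b was at 21.5 and 15.2 CPM in those cells (-0.50 [-0.93, -0.07]). Of the 7 members, 2 (Btg2, Klf2) were 1.5-fold or more higher (1.74% of all genes) and 0 lower (4.69%). Macrophages made up 316 of the 338 untreated and 319 of the 343 NAM cycling myeloid cells. In these macrophages alone both genes were under 1.5-fold, Btg2 at 0.46 [0.30, 0.62] and Klf2 at 0.49 [0.39, 0.59]. In cycling T cells 0 of 4 members with 50 or more UMIs were higher (9.46%) and 3 (Cdkn1a, Btg1, Klf2) lower (8.1%), of which Cdkn1a had an interval that included 0 without the 5 highest cells (-0.85 [-3.00, 0.995]). Cdkn1b had 8 and 7 UMIs there (45.4 and 38.2 CPM, -0.25 [-1.95, 1.41]), too few to show a direction.

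Levels over cell groups, libraries and cycling state (18 in all) were compared with those of 5052 genes by Pearson correlation, as a description. The levels share their 2 libraries and cells of like kind. Cdkn2c ran most like Pttg1 (securin), Cenpm and Knstrn (0.95, 0.94, 0.94), genes of chromosome segregation, and Cdkn2d like Ube2s, Tacc3 and Rangap1 (0.87 each). Cdkn1a followed Tifab, Ptgs2 and Prkcd (0.93 each), Cdkn1b Scyl2, Ppp2r5a and Add3 (0.92, 0.92, 0.86), and Btg1 Dusp5, Mapkapk3 and Ddx5 (0.90, 0.89, 0.89). Btg2 followed Coq10b, Zyx and Sp110 (0.88, 0.85, 0.84), and Klf2 followed Adcy7, Acads and Rabac1 (0.87, 0.86, 0.84). Among the members themselves Cdkn2c and Cdkn2d gave 0.60, Cdkn2c and Btg2 -0.75, and Btg1 and Btg2 0.44.

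Other genes of these pathways were read from lists. Among G1 cyclins, CDKs and regulators of p27 turnover, 1 of 7 genes with 50 or more UMIs was 1.5-fold or more higher and 1 lower in NAM T cells, where 6.12% of all genes were higher and 8.29% lower. The lower one was Cdk6, the D-type cyclin partner that p18 and p19 bind, at 272 and 101 CPM (-1.43 [-1.79, -1.09]), and the higher one Cks1b, which helps mark p27 for degradation, at 22.5 and 41.8 (0.90 [0.06, 1.80]). Cdk4 was at 97.8 and 140 CPM (0.51 [0.10, 0.94]) in T cells, with regulatory-like T cells at 1.504 [0.74, 2.33] from 19 and 61 UMIs and CD8 T cells at -0.14 [-0.68, 0.42]. In myeloid cells 0 of 12 were higher and 1, Ccne2, lower, beside 1.64% and 5.16% of all genes (2.30 and 1.40 CPM, -0.72 [-1.39, -0.06]). Myeloid Cdk6 was at 56.0 and 38.9 CPM (-0.52 [-0.65, -0.40]) and Skp2, the ligase subunit that recognizes p27, at 4.42 and 6.08 (0.46 [0.08, 0.85]).

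Of the FOXO and KLF2 network, 2 of 13 genes were higher and 2 lower in T cells (6.12% and 8.29% of all genes), with a median of -0.36 beside 0.02 over all genes. Foxp1, which holds T cells quiescent, was at 78.0 and 44.7 CPM (-0.80 [-1.39, -0.23]), Klf4 at 21.1 and 36.1 (0.77 [-0.11, 1.71]) and the glucocorticoid target Tsc22d3 at 93.8 and 143 (0.60 [0.19, 1.03]), and the other lower gene was Tcf7 (-0.59). In NK cells 0 of 4 were higher and 1, Klf13, lower (201 and 112 CPM, -0.85), beside 4.09% and 9% of all genes. In myeloid cells 1 of 15 was higher, the integrin gene Itgb7 at 31.5 and 53.9 CPM (0.78 [0.64, 0.91]), and 3 were lower, beside 1.64% and 5.16% of all genes. One was Ccr7 at 60.4 and 32.8 CPM (-0.88 [-1.01, -0.75]), a gene of the dendritic cell gate with 1199 of its 1314 untreated UMIs in dendritic cells. Another was S1pr1 at 6.16 and 3.66 (-0.75 [-1.16, -0.36]). The third lower gene was Bach2 (-0.60).

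Among p53 and its targets, 2 of 8 genes were higher in T cells (6.12% of all genes), Trp53 at 99.1 and 161 CPM (0.70 [0.30, 1.11]) and Ei24 at 35.7 and 58.0 (0.70 [0.02, 1.41]), and 0 lower. In myeloid cells 0 of 16 were higher and 1 lower (5.16% of all genes), Sesn1 at 14.7 and 8.35 CPM (-0.81 [-1.07, -0.56]). For pocket proteins and the DREAM complex, 1 of 5 was higher in T cells (6.12%), the chromatin subunit Rbbp4 at 97.8 and 148 CPM (0.60 [0.19, 1.02]), and 0 of 12 passed in myeloid cells. Other BTG/TOB proteins and CCR4-NOT subunits passed in 0 of 10 cases in T cells (6.12% of all genes higher, 8.29% lower) and 0 of 12 in myeloid cells (1.64% and 5.16%). The other CDK inhibitors were too low in T and NK cells, and in myeloid cells 1 of 3 was higher (1.64%), Cdkn2a (p16 and Arf) at 14.8 and 22.7 CPM (0.62 [0.42, 0.82]). In NK cells these lists had 0 to 2 genes with enough UMIs, and 0 passed. Cdk4 was the 1 of 4 G1 genes to pass there, where 4.09% of all genes were higher (104 and 194 CPM, 0.90 [0.17, 1.64]).

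Several members are also immediate early or stress genes that respond to tissue dissociation, so 14 such genes were measured beside them. In T cells 0 of 14 were higher and 4 lower in NAM (8.29% of all genes), the heat shock genes Hspa1a (611 and 101 CPM, -2.60 [-2.92, -2.29]) and Hspa1b (78.0 and 14.3, -2.45), Jun (89.9 and 51.3, -0.81) and Fosb (-0.63). Of the 462 untreated Hspa1a UMIs, 206 were in other CD8-negative T cells (3 with NAM), and 225 in CD8 T cells (61 with NAM; 551 and 90.6 CPM, -2.60 [-3.04, -2.19]), whereas regulatory-like T cells were at 121 and 145 CPM (0.26 [-0.44, 0.98]). In NK cells 0 of 8 were higher and 3 lower (9% of all genes), with Hspa1a at 536 and 64.7 CPM (-3.05), Jun at 174 and 58.8 (-1.56) and Jund at -0.59. In myeloid cells 0 of 14 were higher and 3 lower (5.16%), Hspa1b (-2.47), Hspa1a (-1.42) and Jun (-0.80), while Egr1 was at 86.3 and 117 CPM (0.44 [0.36, 0.53]) and Fos at 0.19. Their part in the ratios of Btg1, Btg2 and Klf2 was not tested.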

How the data were processed

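The authors prepared Single Cell 3′ libraries from pooled CD45+ cells and counted them with Cell Ranger on mm10. What they deposited are raw UMI counts of each gene in each cell, and the annotation version is not given in the sources used here. All barcodes already had at least 3000 UMIs.

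The members and gene lists were chosen with earlier results of these data known. Cells were gated on UMIs of marker genes. T cells had 2 or more UMIs of Cd3d, Cd3e and Cd3g and no Ncr1, NK cells 1 or more of Ncr1 and no Cd3e, and both at most 2 of Cd68, Csf1r and Adgre1, which left out 26 and 50 T and 19 and 11 NK marker cells of the untreated and NAM libraries as possible doublets. No doublet caller was run. Myeloid cells were dendritic (3 or more UMIs of Flt3, Xcr1, Clec9a, Ccr7, Cd209a and Zbtb46), else monocytes (3 or more of Ly6c2), else macrophages (3 or more of a set with Adgre1, Csf1r and Cd68, whose other member is not reported here; 2214 of 2242 and 2464 of 2493 macrophages also met the minimum on those 3 alone), so the genes of a gate are no finding between groups. In all 88 and 135 cells met no gate.

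UMIs were summed per library and group and divided by the group's total (median T cell 4424 and 4276 UMIs, NK 5251 and 4543, myeloid 9539 and 9576). Genes with under 50 UMIs over both sides were left out of counts at 1.5-fold, for which 0.5 UMI was added. For shares, each cell was thinned to 3000 UMIs (seed 1). Python 3.11.15 with NumPy 2.4.6, SciPy 1.17.1 and pandas 2.3.3 was used, and the interval steps were tested on simulated data. Named list genes were up to 3 per list and group, those with the largest ratio in size, with others named after their values were seen (Tcf7, Bach2, Fosb, Egr1, Fos). The study's cell-level model treats cells as replicates and was not used. Alternatives covered gates on thinned cells, thinning, cell means, scaling, the cycling minimum and leaving out cells with most UMIs or, chosen after seeing the data, with erythroid, mast cell, neutrophil or Cd209a RNA.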

Additional observations from a re-analysis of the deposited data

Results flagged for a closer look

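Among the 3 main groups, among the T cell subsets and among the myeloid subgroups, 4 pairs were found in which a member differed between libraries in opposite directions with each interval leaving out 0. With 1 library per group, none of these differences between groups was tested. Cdkn1a had a log2 ratio, NAM over untreated, of 0.86 in regulatory-like T cells and -2.46 in other CD8-negative T cells, the latter from 17 and 3 UMIs, with 5 cells holding 88.2% of the 17. The first interval included 0 without the 5 highest cells of each library (-0.01 to 1.80) or without 1 NAM cell with neutrophil RNA (-0.02 to 1.27). It was at 0.18 in macrophages and 0.24 in monocytes, against -0.37 in dendritic cells. Klf2 was at -0.64 in T cells and 0.14 in myeloid cells.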

How the results depend on the processing

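Of the member ratios whose interval left out 0, 62 were recomputed under 277 alternatives in all, and 273 kept their direction. The 4 that turned all concern cycling against other cells: Cdkn1a in untreated T cells (-0.053 without the 5 highest cells), Klf2 in NAM T cells (0.010 with gates on thinned cells) and Klf2 in NAM myeloid cells (0.0013 with those gates, 0.018 with a cycling minimum of 1 UMI). The cause was not tested. In T, NK and myeloid cells Btg1 lay between -0.73 and -0.32 and Btg2 between 0.32 and 0.77 under every setting run, and Cdkn1b in T cells between -2.33 and -1.69. NK Cdkn1a, at -0.72, was 0.83 [0.26, 1.40] with gates on thinned cells.

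Medians over the 7 members were less stable. The NK median of 0.07 became 0.77 with gates on thinned cells, 0.65 with thinned cells and -0.47 without the 5 highest cells. The myeloid median of 0.14 became 0.20 with thinned cells, 0.066 with a cycling minimum of 1, -0.021 with cycling cells kept in and -0.21 with subgroups weighted equally. Counted over all 7 members without a UMI minimum, those 1.5-fold or more lower in cycling untreated T cells numbered 2, and 1, 1 and 4 with gates on thinned cells, thinned cells and the 5 highest cells left out. Those higher in cycling NAM T cells numbered 3, and 1 with either a cycling minimum of 1 or the 5 highest cells left out. Members lower in cycling untreated myeloid cells went from 3 to 1 with a cycling minimum of 1. In the NAM library they went from 1 to 2, 3, 0 and 2 with gates on thinned cells, thinned cells, that minimum and the 5 highest cells left out. Shares of all genes under these alternatives were not computed. The cause was not tested.

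No paired analysis was possible because each group is 1 library. Counting intervals say nothing about variation between mice. Cdkn2c, Cdkn2d and Cdkn1b had under 50 UMIs in NK cells, which limits what those cells show. Scaling by the median of ratios shifted no group by more than 0.09.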
